A study of Mus musculus with 24 samples.

Results

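The genes described here are 8 mouse genes whose human counterparts are named in, or closely related to those named in, polyglutamine and repeat-expansion disorders of the nervous system: Htt, Atn1, Tbp, Atxn1, Atxn3, Atxn7, Atxn1l and Atxn10. They were taken by symbol from the 39253 genes of the count table, and all 8 were listed. Of these, 7 passed the filter on low counts and were among the 13901 genes tested, and the remaining gene, Atxn1, was not detected. The table covers 24 RNA-seq libraries of Neuro2A cells, a mouse neuroblastoma line labelled wild-type, in 8 groups of 3 independent biological replicates. In 6 of the groups, cells had been transiently transfected with plasmids for RfxCas13d, HiFi-RfxCas13d (the N2V7 variant) or DiCas7-11, each with a crRNA against the mouse ataxin-2 mRNA (mATXN2) or a non-targeted crRNA (NTG), and were harvested 48 hr later. The 2 other groups were untransfected cells and cells that received an ASO, a short synthetic antisense strand, directed at ataxin-2. No group received a control oligonucleotide, so the ASO was compared with untransfected cells, and the oligonucleotide and its delivery cannot be told apart. In the count table the control columns are headed EV and the targeting columns G12, but the labels of the samples speak of NTG and G10. Each column was given to the sample with its effector, arm and replicate number, and whether the control arm held a non-targeted crRNA or an empty vector is therefore in doubt.

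In the polyglutamine disorders, a run of CAG codons in the coding sequence of a single gene is expanded, and the protein carries a lengthened tract of glutamines that makes it prone to misfold and aggregate in neurons. Htt (huntingtin, a large scaffold of vesicle transport), Atn1 (atrophin-1, a transcriptional corepressor), Tbp (the TATA-box-binding protein), Atxn1 (a partner of the repressor capicua), Atxn3 (a deubiquitinase) and Atxn7 (a subunit of the SAGA chromatin complex) belong to this class, as does Atxn2, the gene targeted in the study. Atxn1l, the paralog of Atxn1, has no known repeat disease, and the ataxia of ATXN10 comes from a noncoding repeat, so neither is a polyglutamine disease gene in the strict sense.

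The longest run of glutamine codons anywhere in each coding sequence is shown first, because a glutamine repeat defines the class and because the mouse runs are short. This run need not lie at the site of the human disease repeat, and the sites were not compared. The sequences come from the GENCODE M21 annotation of GRCm38, which is another build than the one the authors used, and are those of the reference strain, not of Neuro2A cells. Each line gives the sense strand of the coding sequence with 24 bases on each side of the run, and the capitals mark the run. Glutamine codons outside the unbroken run, as in the flanks of Tbp, Atn1 and Atxn7, are in lower case.
Tbp: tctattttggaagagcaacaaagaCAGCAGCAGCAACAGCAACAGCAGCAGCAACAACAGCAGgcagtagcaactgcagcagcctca
Htt: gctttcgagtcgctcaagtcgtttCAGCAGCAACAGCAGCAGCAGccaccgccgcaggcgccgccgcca
Atxn3: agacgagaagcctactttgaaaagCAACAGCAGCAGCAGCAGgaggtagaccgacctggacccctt
Atxn7: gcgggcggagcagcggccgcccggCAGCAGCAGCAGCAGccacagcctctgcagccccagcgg
Atn1: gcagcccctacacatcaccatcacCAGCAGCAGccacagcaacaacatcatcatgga
Atxn1: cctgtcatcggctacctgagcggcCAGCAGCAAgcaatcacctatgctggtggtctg

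The run was 13 codons in Tbp, in exon 4 of 9 (chr17:15504391-15504429, plus strand), with 9 CAG and 4 CAA codons. Htt had 7, in exon 1 of 67 (chr5:34761958-34761978, plus strand), starting at codon 18. Atxn3 had 6, in exon 10 of 11 (chr12:101926563-101926580, minus strand), and Atxn7 had 5, in exon 2 of 12 (chr14:14013156-14013170, plus strand). These 4 genes lay far out among all coding genes, since only 1.16% of 20871 had a run of at least 5, and the median was 2. Atn1 (exon 5 of 10, chr6:124746820-124746828, minus strand) and Atxn1 (exon 6 of 7, chr13:45567080-45567088, minus strand) had runs of 3, and 9.02% of coding genes had a run of at least 3. In Atxn1l and Atxn10 the longest runs were 2 codons and 1 codon. The plot of glutamine codon runs shows this order.

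**Figure D1:**
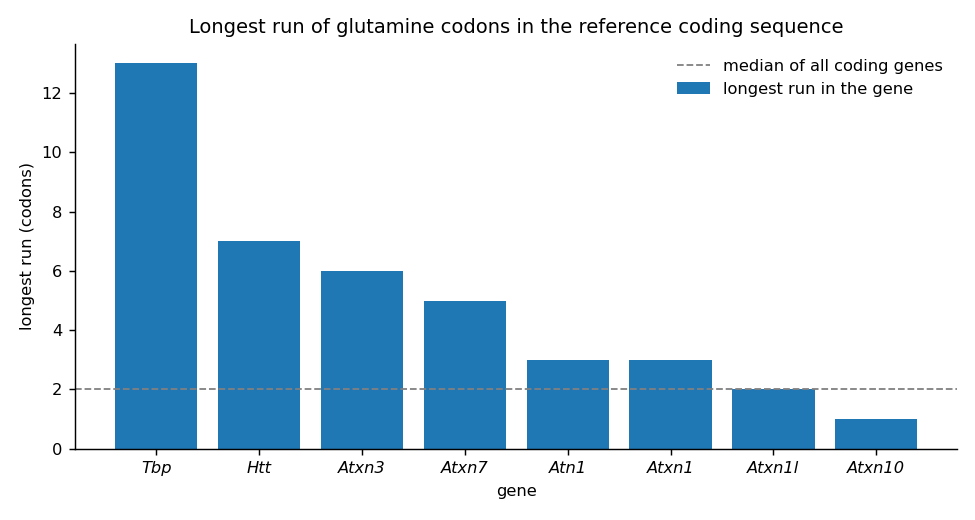
Longest run of glutamine codons (y axis, codons) in the reference coding sequence of each of the 8 genes (x axis), with the median of all coding genes as a dashed line. Tbp has the longest run, with 13 codons, and Atxn1l and Atxn10 lie at or under the median of 2.

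The libraries held between 12665725 and 22504999 counts each, with the most in the ASO samples. Replicates differed from each other by 1.68 to 2.53 in chi-square per degree of freedom over genes in 7 groups, and by 3.22 to 5.33 in the NTG group of DiCas7-11, which was therefore the least uniform. Of 16 neuronal and neuroblastoma markers, 13 had a median of at least 0.5 CPM (each library's counts scaled by its total and TMM factor to a common size), and their summed level was 2917 to 3145 CPM, against 5.19 to 8.52 for 6 fibroblast markers, 14.3 to 19.2 for 6 glial markers, 5.84 to 10.1 for 3 endothelial markers, and at most 2.28 for 5 immune and 0.748 for 4 epithelial markers. The targeted gene, Atxn2, was at 123 ± 1.78 CPM in untransfected cells (mean ± SD, n = 3) and at 52.0 ± 2.77 CPM with the ASO. Against NTG, the mATXN2 arms of RfxCas13d, HiFi-RfxCas13d and DiCas7-11 had log2 changes of Atxn2 of -0.10, -0.23 and -0.20, and the first of these did not pass the test (adjusted p = 0.178, 0.00157 and 0.00557, edgeR quasi-likelihood test with Benjamini-Hochberg adjustment). The DiCas7-11 call of Atxn2 held under 13 of 16 alternative settings. It was lost for 2 of the 6 libraries when each was left out in turn (adjusted p up to 0.0754, edgeR).

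Expression per length separated the 8 genes more than any treatment did. In untransfected cells, the level divided by the length of the reference transcript was 96.0 ± 0.330 CPM per kb for Atxn10, a cytoplasmic protein linked to neuronal survival. Atn1 and Tbp followed at 20.4 ± 0.756 and 18.5 ± 0.638 CPM per kb, Atxn1l at 10.4 ± 0.653, Atxn3 at 7.87 ± 0.148, Htt at 6.65 ± 0.606 and Atxn7 at 2.30 ± 0.0243 (SD, n = 3). The reference transcript need not be the isoform used in these cells, so small steps in this order carry little weight. Atxn1 stood apart from all of them, with 0 counts in 23 of 24 libraries and a count of 1.00 in ASO replicate 1. A count of 0 allows at most 3 counts, or 0.133 to 0.237 CPM depending on the library, as far as counting error goes. Its paralog Atxn1l was present in every library with 905 to 2045 counts.

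**Figure D2:**
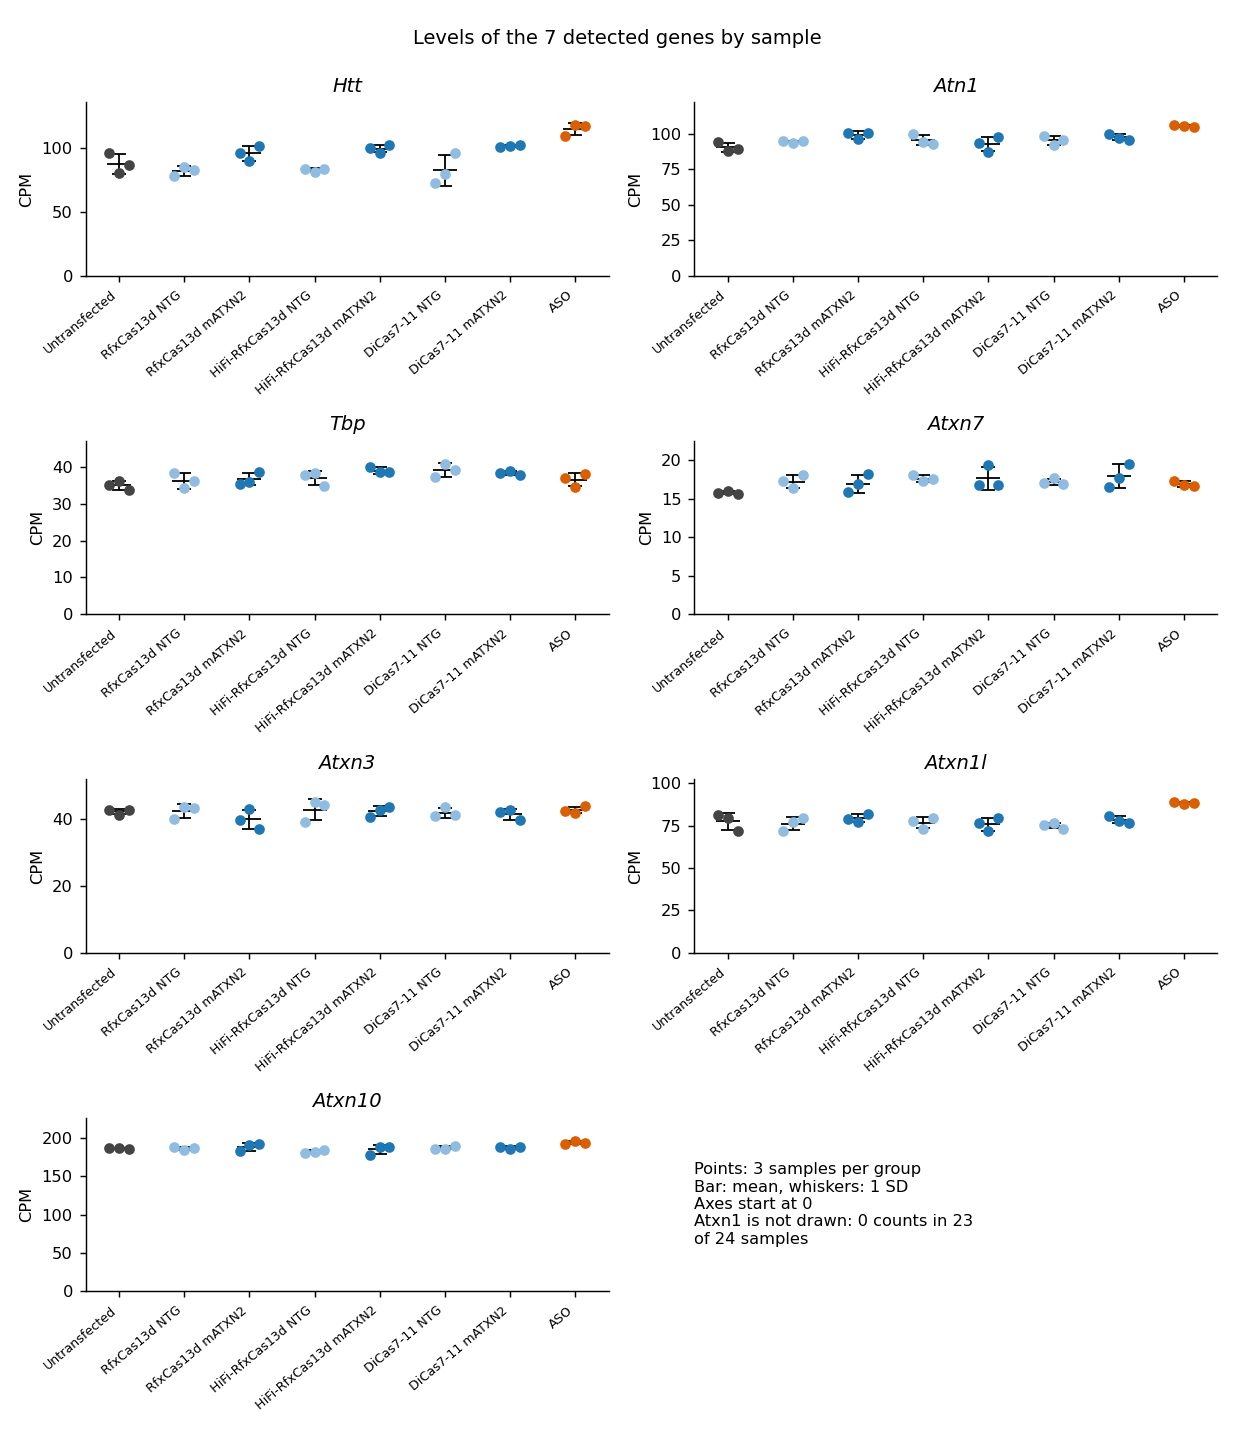
Level in CPM (y axes, starting at 0) of the 7 detected genes in the 8 groups (x axes), with 3 samples per group as points, the mean as a short line and 1 SD as whiskers. Htt is higher with the mATXN2 crRNA than with NTG for each effector, and Htt, Atn1, Atxn1l and Atxn10 are highest in the ASO samples.

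Across the 8 groups, levels moved little. The highest group mean was 1.40 times the lowest for Htt, 1.18 times for Atxn1l, 1.17 times for Atn1, 1.13 times for Atxn7, 1.12 times for Tbp, and 1.07 times for both Atxn3 and Atxn10, as the plot of levels by sample shows. An F test of any difference among the groups called 3 of the 7 genes tested, Htt (adjusted p = 4.95e-07), Atn1 (0.000552) and Atxn1l (0.000842, edgeR quasi-likelihood test with Benjamini-Hochberg adjustment). The same test called 50.3% of all genes tested, so 3 of 7 is near the background. When the groups were ranked by their mean, neighbours in the order overlapped in their samples everywhere for Atxn3 and Tbp. For Htt, Atn1, Atxn1l and Atxn10 only the top step, from the ASO group to the next, was free of overlap, and for Atxn7 only the bottom step, from the ASO group to untransfected cells.

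The comparison of mATXN2 with NTG asks what followed when each effector was directed to ataxin-2. Htt had the largest differences of the 7 genes, and it was higher with mATXN2 each time. Its level in the RfxCas13d samples was 78.2, 85.4 and 83.4 CPM with NTG and 96.3, 90.2 and 102 CPM with mATXN2. In the HiFi-RfxCas13d samples it was 83.9, 81.7 and 83.9 CPM with NTG and 100.4, 96.6 and 102 CPM with mATXN2. In the DiCas7-11 samples it was 72.6, 79.9 and 96.4 CPM with NTG and 101, 102 and 103 CPM with mATXN2. The mATXN2 samples lay above the NTG samples without overlap for all 3 effectors, and NTG replicate 3 of DiCas7-11 was the control closest to them. Of the 13901 genes, 108 (0.777%) were higher in this way with all 3 effectors, and Htt was the only one of the 7 among them. For single effectors, the other genes higher without overlap were Atn1 with RfxCas13d, Tbp with HiFi-RfxCas13d and Atxn1l with DiCas7-11, where 10.3%, 6.97% and 7.25% of all genes were.

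Htt rose with DiCas7-11, by 22.5% (log2 fold change 0.29 ± 0.07 SE, n = 3 against 3, adjusted p = 0.0217, edgeR quasi-likelihood test with Benjamini-Hochberg adjustment). It was 1 of 7 genes called, with 0.942% called among all genes. With RfxCas13d it was 16.5% higher (0.22 ± 0.07) and with HiFi-RfxCas13d 20.0% higher (0.26 ± 0.06), but neither passed edgeR's adjustment over all genes (adjusted p = 0.0971 and 0.0891, unadjusted p = 0.00257 and 0.000353). DESeq2 and limma-trend also called 0 of the 7 genes for these effectors, and edgeR called 1.39% and 0.295% of all genes. At an unadjusted p under 0.05, Htt was the 1 gene of 7 with each of the 3 effectors, where 13.8%, 7.45% and 14% of all genes were. Averaged over the 3 effectors, Htt rose by 0.26 ± 0.04 on the log2 scale (adjusted p = 5.25e-05, edgeR), again the only call among the 7, with 5.19% of all genes called. The DiCas7-11 call rested on few samples. Without NTG replicate 1, NTG replicate 2, or mATXN2 replicate 1, 2 or 3 the adjusted p was 0.0507, 0.192, 0.0933, 0.0667 and 0.0775, without NTG replicate 3 the log2 change of Htt was 0.42, and in a fit of these 6 samples alone it was 0.30 with an adjusted p of 0.198. The fits of only the 6 samples of RfxCas13d or HiFi-RfxCas13d instead called Htt (adjusted p = 0.0134 and 0.000448).

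**Figure D3:**
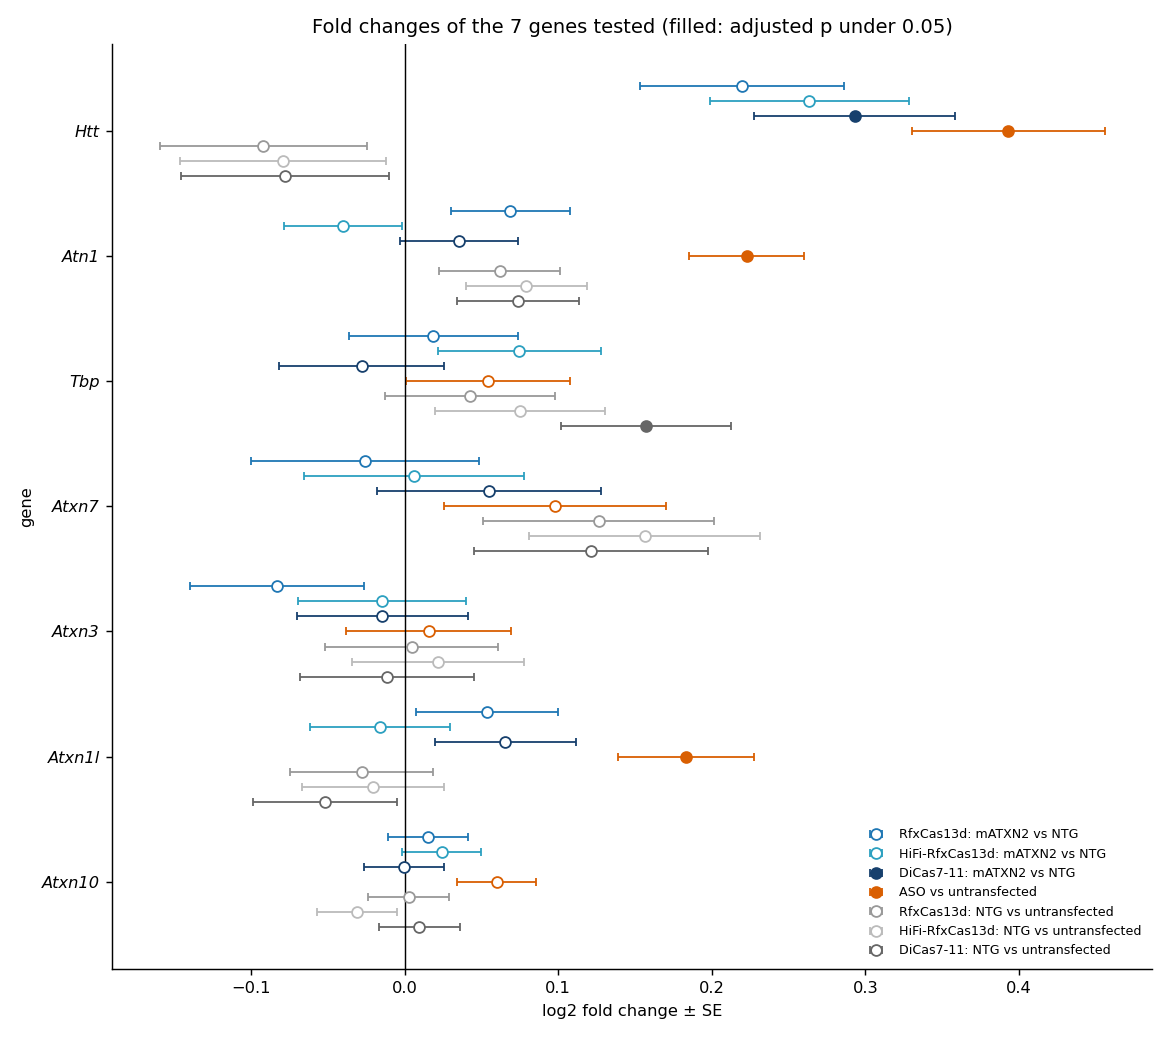
Log2 fold change with its standard error (x axis) of the 7 genes tested (y axis) in 7 comparisons, with filled points where the adjusted p was under 0.05. For Htt the 3 mATXN2 comparisons lie at 0.22 to 0.29 and the ASO at 0.39, while the NTG comparisons lie at -0.09 to -0.08.

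The other 6 genes stayed close to their NTG level. Their log2 changes lay between -0.08 (Atxn3, RfxCas13d) and 0.07 (Tbp, HiFi-RfxCas13d), and none was called (adjusted p of 0.455 or more, edgeR). The median over the 7 genes was 0.02, 0.01 and 0.04 for RfxCas13d, HiFi-RfxCas13d and DiCas7-11, where the median of all genes was within 0.01 of 0 each time. Tests of the difference between effectors called none of the 7 genes. For Htt, the response with HiFi-RfxCas13d exceeded that with RfxCas13d by 0.04 ± 0.09 on the log2 scale, and that with DiCas7-11 exceeded it by 0.07 ± 0.09. Among 21 such differences the extremes were -0.11 and 0.08, the lowest adjusted p was 0.815 and 0 had an unadjusted p under 0.05 (edgeR), and neither DESeq2 nor limma-trend called any. Over all genes tested, 0% were called for each of these differences, and 6.15%, 7.8% and 7.4% had an unadjusted p under 0.05.

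The length of Htt was looked at because its coding sequence, 9363 bases, is among the longest. The 127 other genes tested with a coding length between 0.8 and 1.25 times that of Htt were also mostly higher with mATXN2. Their median log2 change was 0.10 with RfxCas13d, 0.12 with HiFi-RfxCas13d and 0.09 with DiCas7-11, and 80.3%, 87.4% and 79.5% of them were above 0. Htt was toward the top of these genes, with 21, 11 and 9 of the 127 above it. The single libraries showed it too. Relative to the mean of the 24 libraries, Htt ranged from -0.36 to 0.35 and the median of the 127 genes from -0.14 to 0.17 on the log2 scale, and both were on the same side of 0 in 22 of 24 libraries. In NTG replicate 3 of DiCas7-11, the control with the highest Htt, the 127 genes had a median of 0.06, where the other NTG libraries of that effector had -0.09 and -0.11.

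**Figure D4:**
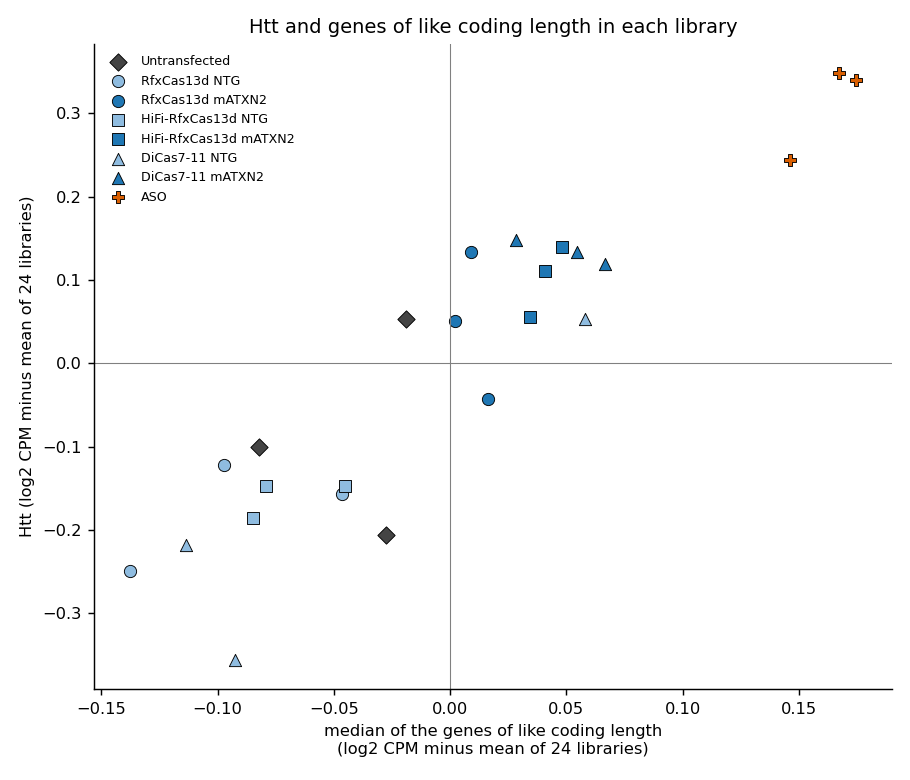
Htt (y axis) against the median of the 127 genes of like coding length (x axis), both as log2 CPM minus the mean over the 24 libraries, with a point per library and the groups by colour and shape. Most NTG points lie at the lower left, the mATXN2 points lie right of 0, and the 3 ASO points are farthest to the upper right.

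A correction that removes from each library its trend over coding length made the Htt differences smaller. The log2 changes of Htt were then 0.12 ± 0.05, 0.14 ± 0.05 and 0.19 ± 0.05 for RfxCas13d, HiFi-RfxCas13d and DiCas7-11 (adjusted p = 0.344, 0.542 and 0.0818, edgeR), so the DiCas7-11 call ended. The average over the effectors was still called at 0.15 ± 0.03 (adjusted p = 0.00366, edgeR). With a correction on transcript length, DiCas7-11 kept its call at 0.21 ± 0.05 (adjusted p = 0.0415, edgeR). The direction was the same under both corrections, as the plot of corrected values shows. The genes whose pattern over the 24 libraries was most like that of Htt, among 10912 compared, were Herc2 (r = 0.942), Kmt2d (0.942) and Wdfy3 (0.940), with coding lengths of 14511, 16767 and 10527 bases; these correlations are descriptions over libraries that share treatments and depth.

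**Figure D5:**
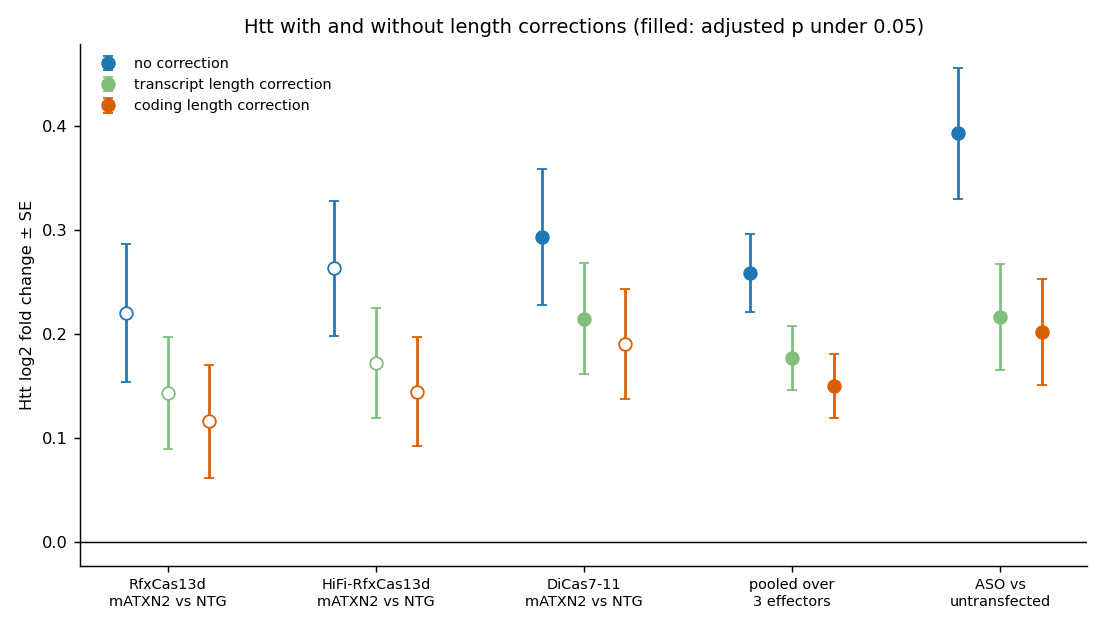
Log2 fold change of Htt with its standard error (y axis) in 5 comparisons (x axis), without a correction and with corrections for transcript length and coding length, filled where the adjusted p was under 0.05. Every value is above 0, and for the ASO the corrected values, 0.22 and 0.20, are well under the uncorrected 0.39.

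The ASO comparison asks what an agent of another kind, which lowered Atxn2 further, did to these genes. Htt was 96.4, 80.5 and 86.7 CPM in untransfected cells and 110.1, 118 and 118 CPM with the ASO. Atn1 was 94.2, 87.7 and 89.4 CPM without and 106, 105.5 and 105 CPM with it. Atxn1l was 81.3, 79.2 and 72.1 CPM without and 88.9, 87.5 and 88.5 CPM with it. In all 3 genes every ASO sample was above every untransfected sample. All 3 rose, Htt by 31.3% (log2 fold change 0.39 ± 0.06 SE, adjusted p = 8.92e-06), Atn1 by 16.7% (0.22 ± 0.04, adjusted p = 1.97e-05) and Atxn1l by 13.5% (0.18 ± 0.04, adjusted p = 0.00124, edgeR quasi-likelihood test with Benjamini-Hochberg adjustment).

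These were 3 of the 7 genes, where 42.7% of all genes tested were called, so the count is at the background of that comparison. Of the 7, 5 were higher without overlap (Htt, Atn1, Atxn1l, Atxn7 and Atxn10), against 25.8% of all genes. The calls of Htt, Atn1 and Atxn1l held under each of 16 alternatives, including each left-out library. Atxn10 was at 185 to 186 CPM in untransfected cells and 192 to 196 CPM with the ASO, without overlap, and missed the threshold narrowly at a log2 change of 0.06 ± 0.03 (adjusted p = 0.0603, edgeR), and it passed with RLE size factors, the replicate block, and the transcript and coding length corrections (adjusted p = 0.0460, 0.0462, 0.0103 and 0.0192). Atxn7 (0.10 ± 0.07), Tbp (0.05 ± 0.05) and Atxn3 (0.02 ± 0.05) did not pass. Genes of the coding length of Htt had a median of 0.20 here, with 27 of 127 above Htt, and Htt kept 0.20 ± 0.05 after the coding length correction (adjusted p = 0.00195, edgeR). The median of 1219 genes of the coding length of Atn1 was 0.03, and that of 2561 genes of the length of Atxn1l was 0.01. Summed immune markers were 0.956 to 2.28 CPM with the ASO and 0 to 0.420 CPM without it, nearly all of it Cd68, and summed fibroblast markers were 5.36 to 6.04 and 8.15 to 8.52 CPM. Summed neuronal markers were 2984 to 3006 and 3075 to 3145 CPM; the part of these markers in the changes of Htt, Atn1 and Atxn1l was not tested.

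The control arms were compared with untransfected cells to see what transfection and the effector did without the targeting crRNA. These comparisons share the same 3 untransfected samples with each other and with the ASO comparison. RfxCas13d and HiFi-RfxCas13d called 0 of the 7 genes, by edgeR, DESeq2 and limma-trend alike, where edgeR called 11.3% and 20.9% of all genes. At an unadjusted p under 0.05 there were 0 and 1 of 7, the latter Atxn7, against 24.8% and 32.7% of all genes. With DiCas7-11, edgeR called Tbp, where 21.9% of all genes were called. Tbp was 35.0, 36.3 and 33.8 CPM in untransfected cells and 37.2, 40.9 and 39.2 CPM in the DiCas7-11 NTG samples, so the groups did not overlap. Its rise was 11.5% (0.16 ± 0.06, adjusted p = 0.0401, edgeR), and it ended under DESeq2 (adjusted p = 0.0734) and without NTG replicate 2 (0.193), NTG replicate 3 (0.0829), untransfected replicate 1 (0.0928) or untransfected replicate 3 (0.113).

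Htt in the control arms was -0.09 ± 0.07, -0.08 ± 0.07 and -0.08 ± 0.07 on the log2 scale relative to untransfected cells for RfxCas13d, HiFi-RfxCas13d and DiCas7-11, not called (adjusted p = 0.433, 0.449 and 0.459, edgeR). The last of these depended on a single library, since without NTG replicate 3 of DiCas7-11 Htt was called lower at -0.20 (adjusted p = 0.0203, edgeR). Atxn7 was lowest in untransfected cells, at 15.8, 15.9 and 15.6 CPM, and every NTG sample lay above these, at 16.3 to 18.1 CPM, where 13.9%, 17.6% and 15.5% of all genes were higher without overlap in the 3 comparisons. Its log2 changes were 0.13 ± 0.08, 0.16 ± 0.08 and 0.12 ± 0.08, none called (adjusted p = 0.316, 0.146 and 0.273, edgeR). Atxn7 had 196 to 398 counts per library, the fewest of the 7 genes.

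Set against untransfected cells, the mATXN2 arms put Htt between the controls and the ASO. Its log2 change was 0.13 ± 0.07 with RfxCas13d, 0.18 ± 0.07 with HiFi-RfxCas13d and 0.22 ± 0.07 with DiCas7-11 (adjusted p = 0.233, 0.0415 and 0.0149, edgeR). The HiFi-RfxCas13d value lost its call under DESeq2, both length corrections, adjustment over 10 comparisons, and on leaving out any of the 6 libraries but untransfected replicate 1. The DiCas7-11 value lost it under both length corrections and without untransfected replicate 2 (adjusted p = 0.130). Atn1 rose with RfxCas13d, by 0.13 ± 0.04 (adjusted p = 0.0280), and with DiCas7-11, by 0.11 ± 0.04 (0.0393), and Tbp with HiFi-RfxCas13d, by 0.15 ± 0.05 (0.0471, edgeR). In all, 1, 2 and 2 of 7 genes were called for RfxCas13d, HiFi-RfxCas13d and DiCas7-11, with 12%, 22.2% and 25.3% of all genes called. Of 16 alternatives, 4 ended the Atn1 call with RfxCas13d, 7 that with DiCas7-11, and 10 the Tbp call, and leaving out a library ended them in 4, 4 and 5 of 6 cases (adjusted p up to 0.143, 0.158 and 0.130, edgeR). Atn1 was not called with either effector without untransfected replicate 2 or 3, nor with RfxCas13d without mATXN2 replicate 1 or 3, nor with DiCas7-11 without mATXN2 replicate 1 or 2. On leaving out a library of the 6, Tbp kept its call in the case of untransfected replicate 2 and lost it in the other five.

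Cacna1a, a calcium channel subunit and another polyglutamine disease gene outside the 8, had 47.9 to 124 counts and was called neither with mATXN2 against NTG nor with the ASO or NTG against untransfected cells.

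Partners of the proteins were counted from lists, and the counts are read against the shares of all genes called that are given above. Atxn7 works in SAGA, an acetyltransferase and deubiquitinase complex, and of its 24 other subunits and relatives tested, 2, 1 and 1 rose and 0 fell with mATXN2 for RfxCas13d, HiFi-RfxCas13d and DiCas7-11. In the average over effectors 4 rose and 1 fell, where 5.19% of all genes were called, and leaving out a library gave 3 to 5 calls. Trrap, the large scaffold that SAGA shares with other complexes, rose with each effector, by 0.38 ± 0.06, 0.40 ± 0.06 and 0.38 ± 0.06 on the log2 scale (adjusted p = 0.000993, 0.000668 and 0.00155, edgeR), and its coding sequence of 11544 bases is longer than that of Htt. With the coding length correction its changes were 0.24, 0.25 and 0.25, each still called, and in a fit of the 6 DiCas7-11 samples alone the call of Trrap ended (adjusted p = 0.0753, edgeR). Sf3b5, a splicing factor subunit that is also in SAGA, passed with RfxCas13d (0.29 ± 0.07), but that call was lost whichever of the 6 libraries was left out, with an adjusted p of up to 0.191 (edgeR). With the ASO, 8 SAGA genes rose, Taf9b by 0.43 ± 0.14 among them (not called without ASO replicate 3, adjusted p = 0.0761, edgeR), and 6 fell, among them Sf3b5 by 0.53 ± 0.07. In the NTG arms of the 3 effectors 2, 4 and 6 rose and 3, 4 and 3 fell against untransfected cells, with Sf3b5 lower in each (-0.30, -0.29 and -0.23). Leaving out a library gave 3 to 6, 6 to 9 and 6 to 10 calls in these arms. The Sf3b5 call was lost without untransfected replicate 2 or 3 for RfxCas13d (adjusted p up to 0.0683) and for DiCas7-11 (up to 0.156), and for DiCas7-11 also without NTG replicate 1 or 2 (edgeR).

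Tbp is the core of TFIID and of the other initiation complexes, and of 29 listed partners 0 were called with mATXN2 for any single effector by edgeR, with 6, 2 and 6 at an unadjusted p under 0.05. Taf9 was called in the average over effectors (0.07 ± 0.02, adjusted p = 0.0133, edgeR). With the ASO 10 rose, led by Taf7 (0.50 ± 0.06) and Taf1a (0.46 ± 0.08), and 3 fell. In the NTG arms 3, 7 and 9 rose and 0 fell for RfxCas13d, HiFi-RfxCas13d and DiCas7-11, among them Taf4b with HiFi-RfxCas13d (0.37 ± 0.07) and DiCas7-11 (0.36 ± 0.07). The SAGA and TFIID lists share Taf9, Taf9b, Taf10 and Taf12.

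Atxn1 and Atxn1l act with capicua (Cic), a repressor of Etv and Dusp genes. Of 11 genes of this axis, Dusp6 fell with RfxCas13d (-0.22 ± 0.05, adjusted p = 0.0214), Cic rose with DiCas7-11 (0.21 ± 0.05, adjusted p = 0.0217, edgeR), and none was called with HiFi-RfxCas13d, where 1 had an unadjusted p under 0.05. Neither call was firm. Dusp6 lost its call without NTG replicate 1 or 3 or mATXN2 replicate 2 or 3 (adjusted p up to 0.120, edgeR). Cic lost its call on leaving out any of the 6 libraries but NTG replicate 1 (adjusted p up to 0.208), and was 0.13 and not called with the coding length correction. In the average over effectors 0 of the 11 rose and 2 fell, where 5.19% of all genes were called. They were Dusp6 (-0.11 ± 0.03, adjusted p = 0.0197) and Spred1 (-0.08 ± 0.02, adjusted p = 0.0213, edgeR), and leaving out a library gave 1 to 3 calls. With the ASO, 3 of the 11 rose and 4 fell, with Etv1 at 0.28 ± 0.03 and Dusp4 at -0.54 ± 0.06. Etv5 was lower in the NTG arms of all 3 effectors (-0.09, -0.14 and -0.17), although the RfxCas13d call was lost whichever of the 6 libraries was left out (adjusted p up to 0.110, edgeR), and Etv1 was higher with HiFi-RfxCas13d (0.19 ± 0.03).

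Of 11 huntingtin-interacting proteins listed, 0 were called with mATXN2 for any effector or for their average (edgeR; 2, 0, 2 and 5 at an unadjusted p under 0.05, where 18.2% of all genes were for the average), and with the ASO 1 rose, Setd2 (0.41 ± 0.03), a histone methyltransferase with a long coding sequence of 7614 bases, while 5 fell, led by Pacsin1 (-0.46 ± 0.07), an endocytic adaptor. Pacsin1 was also lower in the 3 NTG arms (-0.27, -0.38 and -0.27), where 1, 1 and 1 of the 11 rose and 1, 3 and 2 fell. Leaving out a library gave 1 to 2, 3 to 4 and 2 to 4 calls in these arms. In the RfxCas13d arm the Pacsin1 call was lost for 1 of the 6 left-out libraries (adjusted p = 0.0511, edgeR). For Atxn3, whose list holds its deubiquitinase relatives and partners of the VCP pathway, 0 of 9 were called with mATXN2 for HiFi-RfxCas13d and DiCas7-11 (edgeR; 0 and 3 at an unadjusted p under 0.05). With the ASO 4 rose and 4 fell, the latter including Josd2 (-0.37 ± 0.10), a deubiquitinase of the Josephin family. In the NTG arms of the 3 effectors 0, 3 and 3 rose and 1, 1 and 1 fell, and leaving out a library gave 0 to 1, 1 to 3 and 2 to 4 calls. Stub1, a ubiquitin ligase, was higher with HiFi-RfxCas13d and DiCas7-11 (0.12 ± 0.04 and 0.20 ± 0.04). Ube4b fell with HiFi-RfxCas13d (-0.09 ± 0.03), but that call was lost whichever of the 6 libraries was left out (adjusted p up to 0.154, edgeR). The HiFi-RfxCas13d call of Stub1 was lost on leaving out any of the 6 libraries but NTG replicate 2 (adjusted p up to 0.157, edgeR).

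Of 9 genes for the paralog and partners of atrophin-1, 0 were called with mATXN2 for any effector or their average (edgeR; 2, 0, 4 and 5 at an unadjusted p under 0.05, against the same 18.2% for the average). Leaving out a library gave up to 2 calls for DiCas7-11 and up to 3 for the average. With the ASO, 2 rose and 4 fell, and Itch, a ubiquitin ligase that binds atrophin-1, was higher both there (0.25 ± 0.03) and in the 3 NTG arms (0.11, 0.12 and 0.19), where it was the only call. In the RfxCas13d arm the Itch call was lost on leaving out any of the 6 libraries but untransfected replicate 1 (adjusted p up to 0.110), and in the HiFi-RfxCas13d arm without untransfected replicate 2 (0.0539, edgeR). The 4 listed partners of ataxin-10 gave no call with mATXN2 (edgeR; 0 at an unadjusted p under 0.05 for each effector and their average). With the ASO 2 of them fell, Aurkb (-0.23 ± 0.05) and Gnb2 (-0.21 ± 0.03), and Gnb2 was also lower in the NTG arms of HiFi-RfxCas13d (-0.12 ± 0.04) and DiCas7-11 (-0.18 ± 0.04), the former not called without NTG replicate 3 or untransfected replicate 2 (adjusted p up to 0.0947, edgeR).

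Over the 24 libraries, pairs of the 7 genes had Pearson correlations of log2 CPM from -0.22 (Atxn3 and Atn1) to 0.74 (Atxn1l and Atn1), given as a description of libraries that share treatments. Htt, Atn1, Atxn1l and Atxn10, the genes highest with the ASO, were the ones that correlated with each other, at 0.45 to 0.74, and Atxn7 and Tbp correlated at 0.46. Beyond Htt, the genes most like each one were LOC118567871 and Unc79 for Atxn1l (r = 0.872 and 0.853), Zfp251, Tbc1d13 and Zswim8 for Atn1 (0.875, 0.851 and 0.848), Tmem245 and Atp6v1g1 for Atxn10 (0.787 and 0.770), Fmn1, Cir1 and Prpf31 for Atxn3 (0.767, 0.714 and 0.647), Myrip and Ctps for Atxn7 (0.737 and 0.699), and Gne, Trmt11 and Aqr for Tbp (0.727, 0.712 and 0.710).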

How the data were processed

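RNA-seq libraries of 24 Neuro2A samples were used. The authors deposited expected counts per gene, made with Salmon (version 1.5.2, submitters' processing notes) and summed with tximport's lengthScaledTPM method in R (version 4.2.2) against GRCm39; they are not normalized for library size. Table rows were taken by gene symbol, and the column that marks 12874 genes kept by the authors was not used.

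Expected counts were rounded to whole numbers. The filter kept 13901 genes, those reaching 0.5 CPM in 3 or more samples. After TMM normalization, a single edgeR quasi-likelihood model (version 4.0.16, R 4.3.3) held all 24 samples, each group having its own coefficient. Benjamini-Hochberg adjustment ran over all genes of a comparison, the threshold was 0.05, and p-values measure the spread between these replicates. An exact permutation test of 3 against 3 cannot go below p = 0.1 and was not used. Replicate groups were compared for duplicates by chi-square, and none were found.

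The 8 genes and the 8 lists of partners were chosen with earlier results of these data known. Named genes were all 8, Atxn2, the 3 genes of most similar pattern for each (mean of at least 50 counts), and at most 2 called genes with the largest change per list and comparison. Lengths and sequences came from GENCODE M21 (GRCm38), matched by Entrez identifier for 88.4% (transcript length) and 87.2% (coding length) of genes tested; length corrections subtract a lowess curve (span 0.3) per library. Alternatives were RLE size factors, no filter, DESeq2 (version 1.42.0), limma-trend (version 3.58.1, prior count 3), a replicate block, only the samples compared, adjustment over 10 comparisons, both length corrections (the coding length correction was chosen after seeing the data) and leaving out each library. On simulated data for DiCas7-11 (13901 genes), edgeR found 100 of 100 genes with a log2 change of 1 and 68 of 100 with 0.3. It called 8 of 13701 genes that were left as they were. Whether these rates hold for the measured libraries was not tested. There the NTG replicates of DiCas7-11 differed by 3.22 to 5.33 in chi-square per degree of freedom. Protein sequences were not used here, and some named genes of the lists and of the pattern search are not reported here.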

Additional observations from a re-analysis of the deposited data

How the results depend on the processing

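Counts of called genes among the 7 stayed within 1.5 times the reported count in 210 alternatives and did not in 20, and no named gene reversed its direction. Among the values of single named genes, 1288 stayed on their side of the threshold, 182 lost their call and 7 gained one; of the counts over the partner lists, 952 stayed within 1.5 times and 152 did not. With RfxCas13d and HiFi-RfxCas13d, the count for mATXN2 against NTG went from 0 to 1 (Htt) without the filter on low counts, with only the 6 samples compared and with adjustment over 10 comparisons. With DiCas7-11 it went from 1 to 0 under the coding length correction and with only the 6 samples, and lay between 0 and 1 when libraries were left out; it was 0 without NTG replicate 1 or 2 or any mATXN2 replicate. For the NTG arm of DiCas7-11 against untransfected cells, the count of 1 (Tbp) became 0 without the filter, with DESeq2, with only the 6 samples and with adjustment over 10 comparisons, and lay between 0 and 1 when libraries were left out; it was 0 without NTG replicate 2 or untransfected replicate 1 or 3, and without NTG replicate 3 the single call was Htt instead of Tbp. The causes of these changes were not tested. Over all genes, the 193, 41 and 131 calls of RfxCas13d, HiFi-RfxCas13d and DiCas7-11 became 434, 201 and 366 without the filter, 355, 91 and 1 with only the 6 samples, 665, 275 and 643 with adjustment over 10 comparisons, 272, 65 and 269 with DESeq2, 292, 46 and 251 with the replicate block, and 132, 17 and 123 with the coding length correction. Same-numbered replicates did not deviate together (correlations of deviations between -0.06 and 0.08 in the 10 pairs of groups). The replicate block nevertheless raised the calls over all genes for each effector, so whether the replicate number pairs samples was not settled. With the replicate block, Htt was 0.22, 0.26 and 0.29 for RfxCas13d, HiFi-RfxCas13d and DiCas7-11 (adjusted p = 0.0553, 0.0511 and 0.00919, edgeR). The count of calls among the 7 genes was 0, 0 and 1 as before. It was 4 in place of 3 for the ASO (Atxn10 added), and 3 as before in the 8-group test. The block together with the coding length correction kept the DiCas7-11 call of Htt (0.19, adjusted p = 0.0464). At these depths Atxn1 could not be tested.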
